A study of Mus musculus with 7 samples.

Results

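Axon guidance ligand and receptor genes were taken from a deposited mouse expression table by their symbols. They comprise the Eph receptors and ephrins, the semaphorins with their plexin and neuropilin receptors, the Slits and Robos, and the netrins with Dcc and the Unc5 receptors. The rule found 69 genes among 24354 symbols: 14 Eph receptors, 8 ephrins, 20 semaphorins, 9 plexins, 2 neuropilins, 3 Slits, 4 Robos, 4 netrins and 5 netrin receptors. Of the 69, 35 encode ligands and 34 receptors.

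These families steer growing axons and migrating cells. Eph receptors are kinases that bind membrane-tethered ephrins on a neighbouring cell, with A-type receptors preferring ephrins held by a lipid anchor and B-type receptors preferring transmembrane ephrins. Secreted class 3 semaphorins mostly act through a neuropilin and a plexin, whereas membrane-bound semaphorins bind plexins directly. Slits are secreted repellents read by Robo receptors. Netrins attract through Dcc and repel through Unc5 receptors. In the embryonic brain several of these genes are also made by neural progenitors, where Eph-ephrin and Slit-Robo signalling influence proliferation and position.

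The table held RNA sequencing values for 7 libraries. Of these, 5 were induced neural stem cell (iNSC) lines, made by infecting fibroblasts with viral reprogramming factors and culturing them in neural stem cell medium. They were a DTA line, pBKSM, pOKSM, and clones 1 and 3 of mcBKSM. One library was of control neural stem cells (cNSC) from cerebral cortex and one of mouse embryonic fibroblasts (MEF) from embryos without head and inner organs. The age is given as embryonic day 13.5 for all 7 libraries, the iNSC lines included. The prefixes p and mc are read as polycistronic (several factors on 1 transcript) and monocistronic vectors, K, S and M as Klf4, Sox2 and Myc, O as Oct4 (Pou5f1) and B as Brn4 (Pou3f4). MEF, pBKSM, pOKSM and both mcBKSM clones carried Oct4-CreER with a Cre-dependent EYFP reporter at Rosa26, on the strain given as C57BL/6-Pou5f1 x 129X1/SvJ. The DTA line carried Oct4-CreER with Cre-dependent diphtheria toxin, which kills cells that activate Oct4 while Cre is induced. Its strain is given as unknown and its vector is not given. The cNSC came from OG2/ROSA26 heterozygous females, so cell type and strain cannot be told apart in any comparison with cNSC. RNA of 2 to 3 biological replicates was pooled for each library, so there is no spread within a line, and mcBKSM alone had more than 1 library.

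Estimated depth ran from 10.8 M fragments (pBKSM) to 15.9 M (DTA), and 3 fragments on a transcript of 2 kb then correspond to 0.0944 FPKM (DTA) to 0.139 FPKM (pBKSM). Such values mark the detection floor, which covers counting error only. Marker genes followed the labels: 12 fibroblast markers summed to 3.93 to 54.9 FPKM in the iNSC lines, 8.81 FPKM in cNSC and 1626 FPKM in MEF, and 12 neural stem cell markers to 1176 to 6109 FPKM, 2729.7 FPKM and 16.5 FPKM. The highest sum of 8 endothelial markers was 2.52 FPKM, in cNSC, and 7 pericyte and smooth muscle markers summed to 0.385 to 2.46 FPKM in the lines, 53.6 FPKM in cNSC and 135 FPKM in MEF. Pou3f4 was listed at 0 in both mcBKSM clones and in MEF. It was 24.1 FPKM in DTA, 19.99 in pBKSM, 2.26 in pOKSM and 27.2 in cNSC. Pou5f1 was 0.202 FPKM in pOKSM, 0.398 and 0.187 in mcBKSM clones 1 and 3, and listed at 0 elsewhere. In DTA, pBKSM, pOKSM and clones 1 and 3, Sox2 was 106, 87.6, 277, 342 and 390 FPKM. Myc was 50.1, 78.9, 339, 450 and 485 FPKM in the same order. In cNSC and MEF, Sox2 was 107 and 0 FPKM and Myc 42.5 and 47.8 FPKM. Whether the table counts vector transcripts is not given in the sources used here, and the line labels are used below as names.

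Most guidance genes were expressed somewhere. FPKM is fragments divided by transcript length and by library depth. Between 41 and 48 of the 69 reached 1 FPKM in an iNSC line, 45 in cNSC and 37 in MEF. These were 59.4% to 69.6% in the lines, 65.2% in cNSC and 53.6% in MEF. Over all 24354 genes the shares were 45.7% to 46.7%, 46.9% and 44.8%. In all 7 libraries 24 of the 69 genes reached 1 FPKM. The other extreme was 12 genes that stayed under 1 FPKM everywhere: Epha1, Epha6, Epha8, Epha10, Sema3d, Sema3g, Sema4a, Sema4f, Plxna4, Robo3, Robo4 and Unc5d, the highest of their values being 0.821 FPKM for Sema4a in MEF. They did not enter the tests, which required 1 FPKM or more in some library of the fit.

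**Figure D1:**
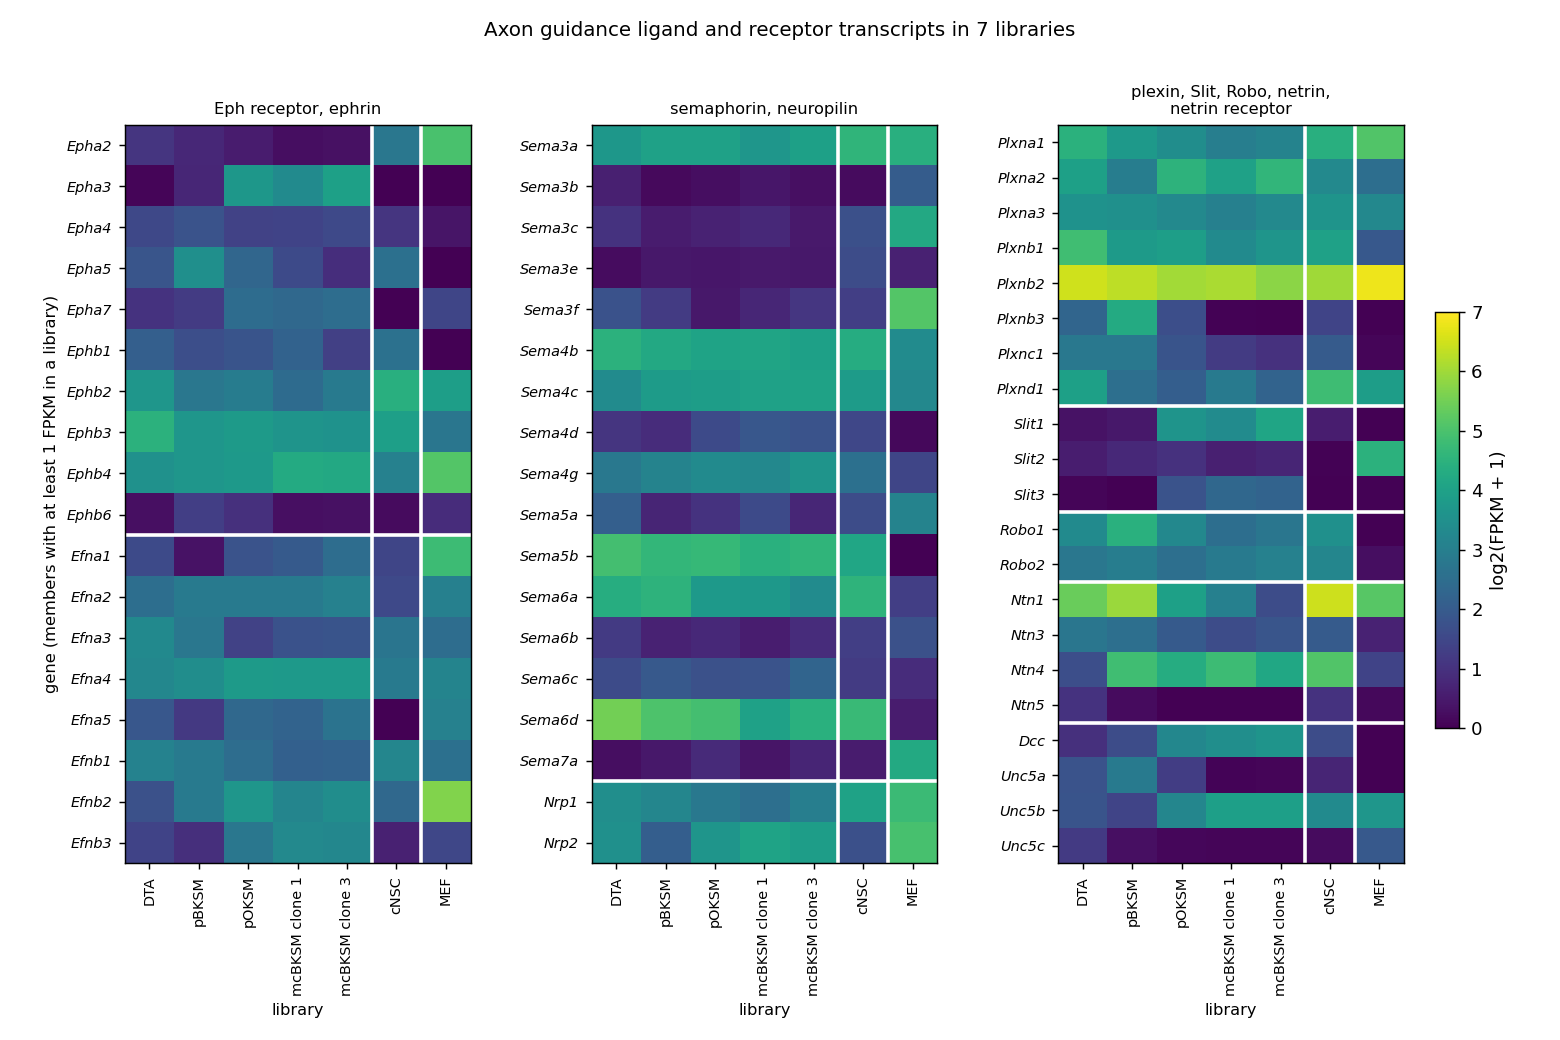
Levels of the 57 genes that reached 1 FPKM in at least 1 library, as log2(FPKM + 1) by colour; rows are genes by family, columns are the DTA, pBKSM, pOKSM and mcBKSM iNSC lines, then cNSC and MEF. Plxnb2 is bright in each library, Sema5b and Robo1 are dark in MEF alone, and Slit1, Epha3 and Dcc are brightest in pOKSM and the mcBKSM clones.

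The family members that dominated differed between cell types. The plexin Plxnb2, a receptor for class 4 semaphorins, had the highest level of all 69 genes in 6 libraries, at 89.97 FPKM in DTA, 77.6 in pBKSM, 64.0 in pOKSM, with 68.8 and 54.1 for the mcBKSM clones, and 113 in MEF. In cNSC it was 62.6 FPKM, below the netrin Ntn1 at 87.2 FPKM. Among semaphorins Sema6d led in the iNSC mean (28.3 ± 11.5 FPKM, SD, n = 5) and in cNSC (25.6), and Sema3f led in MEF (33.8). Among ephrins Efna4 led in the iNSC mean (11.4 ± 2.08 FPKM, SD, n = 5), Efnb1 in cNSC (8.21) and Efnb2 in MEF (50.4). Ephrin transcripts summed to 37.2 to 54.7 FPKM in the iNSC lines, 28.7 FPKM in cNSC and 111 FPKM in MEF.

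The first comparison asked how far these genes differed between the lines and fibroblasts. MEF shares its genotype and strain label with every line except DTA, whose genotype differs and whose strain is unknown. For DTA, conversion cannot be told apart from genotype or strain. Against MEF, the 5 iNSC lines had 8 guidance genes called higher and 8 called lower of 57 tested (limma, adjusted p under 0.05), where 6.77% of all 13042 genes tested were called higher and 9.55% lower. Both Robo receptors tested and 3 membrane-bound semaphorins, Sema5b, Sema6a and Sema6d, were among the largest rises. The secreted semaphorins Sema3b, Sema3c and Sema3f, the secreted Slit2, the receptor Epha2 and the lipid-anchored Sema7a were among the falls. The median absolute log2 difference was 1.498 over the tested members and 0.59 over all genes tested. Of the tested ligands, 4 of 31 rose and 6 fell, and of the tested receptors, 4 of 26 rose and 2 fell. The 5 lines are not repeats of one line, but the 2 mcBKSM clones share 1 label group and each counted as a line. MEF is 1 library assumed to vary like the lines. In these bulk libraries fewer cells making a transcript and less transcript per cell cannot be told apart.

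**Figure D2:**
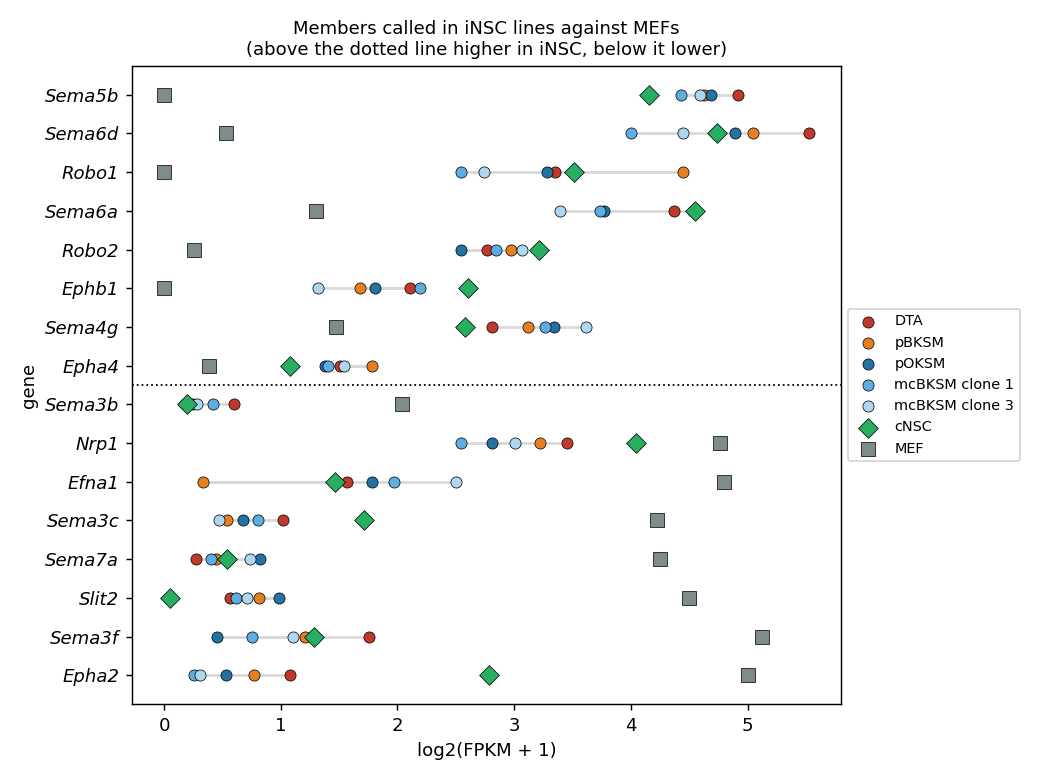
The 16 genes called in iNSC lines against MEF, with log2(FPKM + 1) on the x axis and 1 row per gene; circles are the 5 iNSC lines, diamonds cNSC and squares MEF. In each row the MEF square lies outside the span of the 5 lines, and cNSC lies on the iNSC side of MEF.

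Of 16 semaphorins tested, 4 rose and 4 fell. In class 4, 1 of 4 tested genes rose, in class 5 1 of 2 and in class 6 2 of 4, and 0 were called lower, although Sema5a and Sema6b had lower values in every line than in MEF. Of 5 tested class 3 genes 3 fell and 0 rose, and Sema7a, the single class 7 gene, fell. Sema5b, a transmembrane semaphorin (chromosome 16, 35541145 to 35664732, mm10), had 29.2 FPKM in DTA, 23.7 in pBKSM, 24.7 in pOKSM, 20.6 and 23.1 in mcBKSM clones 1 and 3, and 16.8 in cNSC, and was listed at 0 in MEF. All 5 lines and cNSC were thus within a narrow range. The log2(FPKM + 1) difference from MEF was 4.65 ± 0.22 (SE, adjusted p = 0.000138).

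Sema6d, which binds class A plexins, had 44.97 FPKM in DTA, 32.0 in pBKSM, 28.8 in pOKSM, 14.96 and 20.8 in the mcBKSM clones, 25.6 in cNSC and 0.442 in MEF (log2 difference 4.25 ± 0.56, SE, adjusted p = 0.00639). Sema6a, another class A plexin ligand, had 19.7, 22.1, 12.6, 12.3 and 9.48 FPKM in the same lines, 22.5 in cNSC and 1.46 in MEF (2.66 ± 0.47, SE, adjusted p = 0.0176). Both were lowest among the lines in the mcBKSM clones, and neither overlapped MEF. Sema4g, of the plexin-binding class 4, had 6.03, 7.68, 9.13, 8.61 and 11.3 FPKM in the lines, 4.99 in cNSC and 1.77 in MEF (1.76 ± 0.33, SE, adjusted p = 0.0218). Without pOKSM the calls of Sema6a (adjusted p = 0.051) and Sema4g (0.0692) ended, and that of Sema4g also without mcBKSM clone 1 (0.0574).

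Sema3f, a secreted ligand that acts through neuropilin 2 (chromosome 9, 107681500 to 107710475), had 2.37 FPKM in DTA, 1.31 in pBKSM, 0.370 in pOKSM, 0.686 and 1.14 in the mcBKSM clones, 1.44 in cNSC and 33.8 in MEF. DTA was the highest of the lines and still far below MEF. The log2 difference was -4.07 ± 0.49 (SE, adjusted p = 0.00457). Sema3c, also secreted, fell to 1.02, 0.449, 0.598, 0.742 and 0.385 FPKM in the same lines, against 17.7 in MEF, with 2.28 in cNSC (-3.53 ± 0.25, SE, adjusted p = 0.000684). Sema3b had 0.517, 0.129, 0.188, 0.338 and 0.218 FPKM in the lines, 0.147 in cNSC and 3.11 in MEF (-1.69 ± 0.19, SE, adjusted p = 0.00385). Both were low in every line and in cNSC. Sema7a had 0.207, 0.360, 0.768, 0.324 and 0.665 FPKM in the lines, 0.452 in cNSC and 18.0 in MEF (-3.71 ± 0.26, SE, adjusted p = 0.00058). Sema3a, a well known axon repellent of class 3, did not pass and had 12.02, 15.1, 14.98, 11.7 and 14.7 FPKM in the lines, 22.9 in cNSC and 20.3 in MEF.

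Their receptors moved less uniformly. Nrp1, the neuropilin that Sema3a binds, fell to 9.94 FPKM in DTA, 8.32 in pBKSM, 6.02 in pOKSM, with 4.83 and 7.02 for the mcBKSM clones, against 26.1 in MEF; cNSC had 15.5. Its log2 difference was -1.75 ± 0.37 (SE, adjusted p = 0.03), and the call ended without pOKSM (adjusted p = 0.0811) or without mcBKSM clone 3 (0.0719), and with the 2 clones averaged (0.0508, chosen after seeing the data). Nrp2, the receptor of Sema3f, had 10.3, 3.26, 11.5, 15.8 and 13.8 FPKM in the same lines, 2.24 in cNSC and 30.3 in MEF, and did not pass (adjusted p = 0.222). None of 8 tested plexins passed with all lines. Plxnb1, a class 4 semaphorin receptor, came closest at 28.2, 13.1, 14.1, 9.20 and 11.7 FPKM in the lines, 15.03 in cNSC and 2.78 in MEF (adjusted p = 0.0646).

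In the Slit and Robo families the receptors rose and the fibroblast ligand fell. Robo1 (chromosome 16, 72308306 to 73046095) had 9.17 FPKM in DTA, 20.8 in pBKSM, 8.69 in pOKSM, 4.82 and 5.67 in the mcBKSM clones and 10.4 in cNSC, and was listed at 0 in MEF (log2 difference 3.27 ± 0.71, SE, adjusted p = 0.0335). Its call ended without pOKSM (adjusted p = 0.0875), mcBKSM clone 3 (0.0588) or DTA (0.0538). Robo2, also on chromosome 16, was more even, with 5.81, 6.85, 4.84, 6.19 and 7.39 FPKM in the same lines, 8.26 in cNSC and 0.194 in MEF (2.58 ± 0.27, SE, adjusted p = 0.00275). Slit2 had 0.483, 0.752, 0.983, 0.530 and 0.637 FPKM in the same lines, 0.0368 in cNSC, which is at the floor, and 21.6 in MEF (-3.76 ± 0.21, SE, adjusted p = 0.000264).

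The other Slits differed between the lines. Slit1, which is made chiefly in the nervous system, had 0.265 FPKM in DTA, 0.373 in pBKSM, 11.2 in pOKSM, 9.33 and 16.3 in the mcBKSM clones, 0.469 in cNSC and 0.0121 in MEF. Slit3 had 0.0725, 0, 2.49, 4.05 and 3.73 FPKM in the same lines, 0 in cNSC and 0.0253 in MEF. Thus pOKSM and both clones had Slit1 and Slit3 transcripts that DTA, pBKSM and cNSC had at a low level or at the floor. Neither passed against MEF (adjusted p = 0.389 and 0.461).

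**Figure D3:**
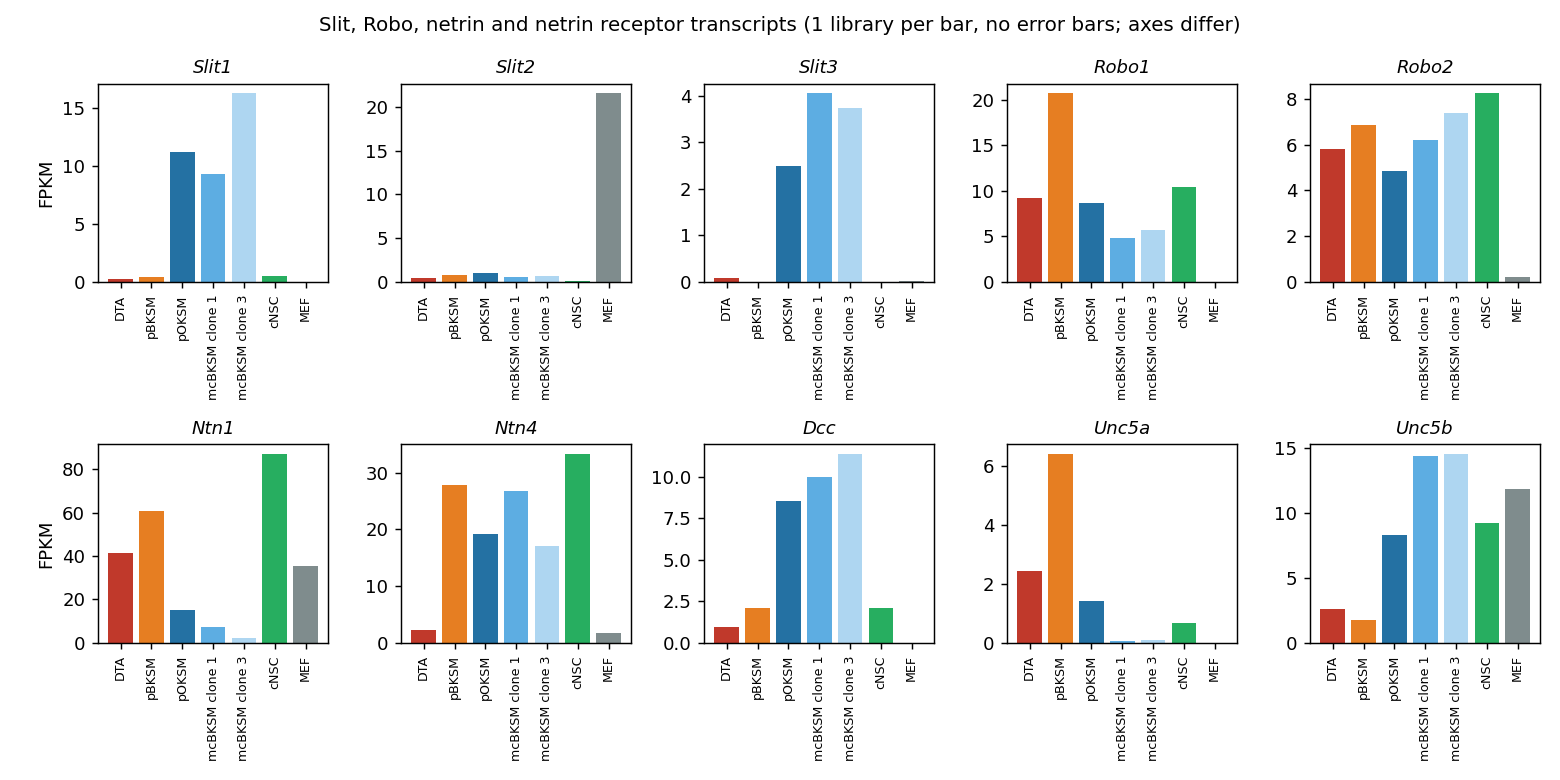
FPKM of Slit, Robo, netrin and netrin receptor genes, 1 bar per library with the iNSC lines left, then cNSC and MEF; y axes start at 0 and differ between genes. Slit2 is high in MEF alone, Slit1, Slit3 and Dcc are high in pOKSM and the mcBKSM clones, and Ntn1 is high in DTA, pBKSM, cNSC and MEF.

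Among Eph receptors 2 of 10 tested rose and 1 fell. Epha2, a receptor common in epithelial and mesenchymal cells (chromosome 4, 141301240 to 141329384), fell to 1.12 FPKM in DTA, 0.709 in pBKSM, 0.444 in pOKSM, with 0.196 and 0.235 for the mcBKSM clones, against 31.0 in MEF (log2 difference -4.41 ± 0.36, SE, adjusted p = 0.00105). It was 5.87 FPKM in cNSC, above every line. Ephb1 had 3.31, 2.1996, 2.51, 3.57 and 1.49 FPKM in the same lines, 5.07 in cNSC and listed at 0 in MEF (1.82 ± 0.37, SE, adjusted p = 0.0266), and its call ended without pOKSM (adjusted p = 0.0761). Epha4, which binds ephrins of both types, had 1.84, 2.43, 1.60, 1.64 and 1.92 FPKM in the lines, 1.11 in cNSC and 0.308 in MEF (1.13 ± 0.21, SE, adjusted p = 0.0209). The Epha4 call ended without pOKSM or without mcBKSM clone 3 (adjusted p = 0.0577 each) and with quantile normalization (0.131).

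Of 8 ephrins, Efna1 was the single one called. It had 1.96 FPKM in DTA, 0.263 in pBKSM, 2.44 in pOKSM, 2.92 and 4.67 in the mcBKSM clones, 1.77 in cNSC and 26.9 in MEF (log2 difference -3.17 ± 0.77, SE, adjusted p = 0.0455). That call was close to the threshold and ended without pOKSM (adjusted p = 0.105), mcBKSM clone 1 (0.0848), mcBKSM clone 3 (0.0512) or DTA (0.068), with a pseudocount of 0.1 (0.116), with no filter on low values (0.0607) and with the clones averaged (0.0642). Efnb2, an ephrin of arteries and of many embryonic tissues, had 2.33, 6.34, 11.9, 8.15 and 9.85 FPKM in the lines, 4.14 in cNSC and 50.4 in MEF, and did not pass (adjusted p = 0.0609). MEF was above every line for both.

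The remaining Eph and ephrin genes did not pass in this comparison. Ephb4, the partner of Efnb2, had 10.6 FPKM in DTA, 11.9 in pBKSM, 12.9 in pOKSM, 18.5 and 17.6 in the mcBKSM clones, 7.41 in cNSC and 34.2 in MEF (adjusted p = 0.0656). Ephb3, another B-type receptor, had 21.5, 11.9, 13.1, 11.2 and 10.9 FPKM in the same lines, 14.5 in cNSC and 5.67 in MEF (adjusted p = 0.116). MEF lay outside the range of the lines for both. Efna4 had 8.44, 9.86, 13.0, 12.6 and 12.8 FPKM in the lines, 6.42 in cNSC and 7.98 in MEF. Efnb1 had 7.56, 6.29, 4.64, 3.47 and 3.63 FPKM in the lines, 8.21 in cNSC and 4.99 in MEF. For Efnb1 MEF fell within the range of the lines. Efna3 was 1.59 to 9.10 FPKM and Epha7 1.03 to 4.71 FPKM in the lines, with 5.62 and 0.00927 FPKM in cNSC and 4.64 and 1.75 FPKM in MEF.

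Further semaphorin, plexin and netrin genes did not pass against MEF. Sema4b, the class 4 gene with the highest level, had 21.8, 17.8, 15.6, 15.9 and 14.8 FPKM in the lines from DTA to mcBKSM clone 3, 19.1 in cNSC and 9.36 in MEF. Sema5a, the class 5 partner of Sema5b, had 3.32, 0.663, 1.04, 1.98 and 0.672 FPKM in the same lines, 2.11 in cNSC and 7.81 in MEF (adjusted p = 0.0817). Sema5a was lower than MEF in every line, and without DTA it was called lower (log2 difference -2.12, adjusted p = 0.026). Sema6b, the class 6 gene highest in MEF, had 1.26, 0.579, 0.735, 0.470 and 0.869 FPKM in the lines, 1.45 in cNSC and 2.33 in MEF (adjusted p = 0.0704). Sema4c, Sema4d and Sema6c were 0.858 to 15.5 FPKM in the lines. Plxna2 was 6.82 to 23.5 FPKM, Plxna3 7.26 to 10.97 FPKM and Plxnc1 0.987 to 6.02 FPKM in the lines, with 4.73, 8.70 and 0.0711 FPKM in MEF. Ntn3 was 2.11 to 5.76 FPKM in the lines, 3.06 in cNSC and 0.595 in MEF (adjusted p = 0.0961). Ntn5 and Unc5c were at or under 1.28 FPKM in the lines, with 0.115 and 2.90 FPKM in MEF. Exons of Ntn5, Efna3, Plxna1, Efna4, Sema4c and Epha1 overlap those of a gene on the opposite strand over 6.0% to 23.4% of their length. Whether counting used the strand is not given in the sources used here, so their values may include reads of that gene.

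Counts in this comparison depended on which lines entered. Leaving out pOKSM left 3 guidance genes called higher and 6 lower, and leaving out DTA gave 13 higher and 13 lower. Over all genes the counts were 1147 without pOKSM, 1417 without mcBKSM clone 3 and 3193 without DTA, against 2128 with all lines. Sema5b, Sema6d, Robo2, Epha2, Sema3b, Sema3c, Sema3f, Sema7a and Slit2 kept their calls in every alternative in which they were tested. Without DTA the genes newly called included Ephb3, Ntn4 and Plxnb1, higher, and Efnb2, Plxna1, Sema5a and Unc5c, lower. Plxna2 was called higher without pBKSM, Epha5 and Sema4d with a pseudocount of 0.1, and Unc5c was also called lower with quantile normalization.

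The neural and fibroblast samples, cNSC and MEF, had 1 library each, so they were compared with no test. Of 37 guidance genes with at least 5 FPKM in either, 9 were 4-fold or more higher in cNSC on the log2(FPKM + 1) scale and 10 were higher in MEF, where 7.55% and 6.48% of all 9972 such genes were. Higher in cNSC were Epha5, Ephb1, Ntn4, Plxnb1, Robo1, Robo2, Sema5b, Sema6a and Sema6d. Higher in MEF were Efna1, Efna5, Efnb2, Epha2, Ephb4, Nrp2, Sema3c, Sema3f, Sema7a and Slit2. Relative to the midpoint of cNSC and MEF, pBKSM, pOKSM and mcBKSM clone 1 lay on the cNSC side for all 9 cNSC-high genes. DTA lay there for 8, with Ntn4 on the MEF side, and mcBKSM clone 3 for 8, with Epha5 on the MEF side. Of the 10 MEF-high genes, all lay on the cNSC side in pBKSM, 8 in DTA and in pOKSM (not Efna5 or Nrp2), and 7 in each mcBKSM clone (not Efna5, Ephb4 or Nrp2). Over all genes that passed the same fold, 56.0% to 82.2% of cNSC-high and 76.3% to 92.1% of MEF-high genes were there.

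Ntn4 and Epha5 were the exceptions among cNSC-high genes. Ntn4, a basement membrane netrin, had 2.19 FPKM in DTA, 27.8 in pBKSM, 19.2 in pOKSM, 26.9 and 17.1 in the mcBKSM clones, 33.4 in cNSC and 1.64 in MEF. DTA was thus near MEF and the other lines nearer to cNSC. Epha5, a receptor of the developing brain for lipid-anchored ephrins, had 2.59, 10.2, 3.94, 2.00 and 0.881 FPKM in the same lines and 5.01 in cNSC, and was listed at 0 in MEF. Efna5, one of its ligands, had 2.76, 1.26, 4.18, 3.67 and 5.31 FPKM in the lines, 0.0122 in cNSC, which is at the floor, and 7.46 in MEF.

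The second comparison asked how the lines differed from cortical neural stem cells. The 5 iNSC lines had 1 of 57 guidance genes called against cNSC, and it was lower; of all 13042 genes 1.17% were called, 0.958% being lower. An unadjusted p under 0.05 was found for 11 guidance genes (19.3%) and for 13.6% of all genes tested. The one called was Sema3e, a secreted semaphorin that binds Plxnd1 without a neuropilin. It had 0.183 FPKM in DTA, 0.373 in pBKSM, 0.344 in pOKSM, 0.400 and 0.375 in the mcBKSM clones, 2.08 in cNSC and 0.566 in MEF (log2 difference from cNSC -1.21 ± 0.15, SE, adjusted p = 0.0287). All lines were below cNSC and MEF, at low levels. The call ended without pOKSM (adjusted p = 0.154), pBKSM (0.0632), mcBKSM clone 1 (0.0998) or mcBKSM clone 3 (0.128), and with a pseudocount of 0.1 (0.127), quantile normalization (0.0635) or no trend (0.0501). This comparison shares its iNSC libraries with the one against MEF. The pericyte and smooth muscle markers given above were also lower in the lines than in cNSC, and their part in these values was not tested.

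Other members differed from cNSC by value without passing. Plxnd1, the Sema3e receptor, had 14.8 FPKM in DTA, 4.90 in pBKSM, 3.27 in pOKSM, 6.26 and 3.72 in the mcBKSM clones, 27.1 in cNSC and 13.8 in MEF (log2 difference from cNSC -2.07 ± 0.72, SE, adjusted p = 0.323). Ephb2, a B-type receptor, had 11.7, 5.86, 6.68, 4.45 and 6.30 FPKM in the same lines, 20.3 in cNSC and 14.1 in MEF (-1.47 ± 0.45, SE, adjusted p = 0.269). Both were highest among the lines in DTA and below cNSC in each line. Efna2 was the reverse, at 4.82 to 7.49 FPKM in the lines, against 1.93 in cNSC (1.30 ± 0.26, SE, adjusted p = 0.118). Without DTA, 1 guidance gene was called higher than cNSC (Efna2, adjusted p = 0.0321) and 6 lower, among them Epha2 (0.0234), Ephb2 (0.0411) and Plxnd1 (0.0394). Over all genes that setting called 883, against 152 with all lines.

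The third comparison set pBKSM against the mcBKSM clones. Vector type cannot be told apart here from line or from Pou3f4 level, since pBKSM is 1 library and the mcBKSM libraries are clones. In pBKSM, 3 guidance genes were called higher and 3 lower of 57 tested (limma, 6 label groups in 1 fit), where 5.82% of all 13042 genes were called, 3.74% higher and 2.08% lower. Higher were the receptors Plxnb3, Unc5a and Ephb6. Lower were the ligands Slit3 and Efnb3 and the receptor Unc5b. The spread came from the 2 clones with 1 residual degree of freedom, and without limma's trend 0 genes of the whole table were called. Of the tested members, 29.8% were 2-fold or more apart on the log2(FPKM + 1) scale, and of all genes tested 18.0%.

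Plxnb3, a semaphorin 5A receptor (chromosome X, 73757090 to 73772514), had 18.4 FPKM in pBKSM, against 0.0229 and 0.0126 in mcBKSM clones 1 and 3, both at the floor (log2 difference 4.25 ± 0.07, SE, adjusted p = 0.0367). It was 3.87 FPKM in DTA, 2.18 in pOKSM and 1.70 in cNSC, and was listed at 0 in MEF. Unc5a, a netrin receptor of neurons (chromosome 13, 54949411 to 55006018), had 6.42 FPKM in pBKSM, against 0.0528 and 0.0776 in the clones (2.80 ± 0.06, SE, adjusted p = 0.0367). It was 2.44 FPKM in DTA, 1.40 in pOKSM and 0.657 in cNSC, and was listed at 0 in MEF. For both genes pBKSM was highest of the 7 libraries and the clones were at the floor. Ephb6, a kinase-dead Eph receptor, had 1.46 FPKM in pBKSM, against 0.224 and 0.247 in the clones, with 0.211 in DTA, 0.952 in pOKSM, 0.153 in cNSC and 0.851 in MEF (0.996 ± 0.04, SE, adjusted p = 0.0374).

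Slit3 was listed at 0 in pBKSM and had 4.05 and 3.73 FPKM in the clones (log2 difference -2.29 ± 0.07, SE, adjusted p = 0.0367). Efnb3, a transmembrane ephrin of the spinal midline, had 0.933 FPKM in pBKSM, against 8.76 and 8.38 in the clones (-2.31 ± 0.11, SE, adjusted p = 0.0402). Unc5b, a netrin receptor also found in vessels, had 1.72 FPKM in pBKSM, against 14.3 and 14.5 in the clones (-2.50 ± 0.13, SE, adjusted p = 0.0426). In pOKSM these were 2.49 FPKM for Slit3, 5.90 for Efnb3 and 8.29 for Unc5b, closer to the clones, and in DTA 0.0725, 1.65 and 2.55, closer to pBKSM. Efnb3 had 0.561 FPKM in cNSC and 1.79 in MEF, and Unc5b 9.23 in cNSC and 11.8 in MEF. Without a filter on low values the calls of Efnb3 (adjusted p = 0.0621) and Unc5b (0.052) ended. With a pseudocount of 0.1 that of Efnb3 ended (0.0522).

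**Figure D4:**
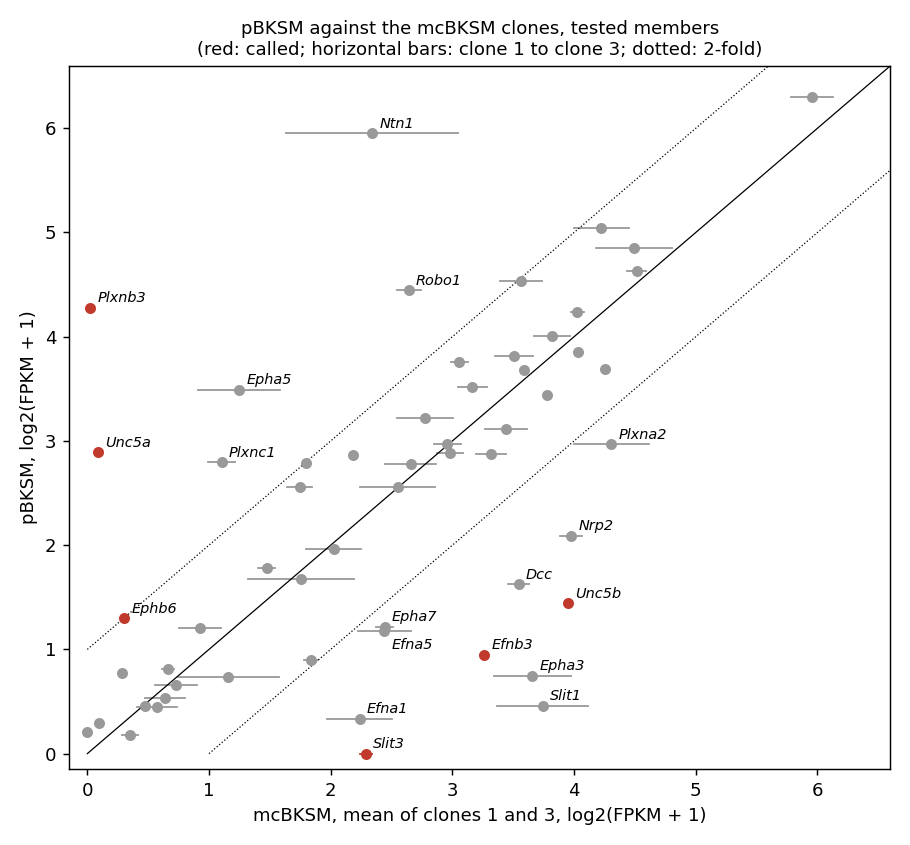
The 57 tested guidance genes as log2(FPKM + 1), pBKSM on the y axis and the mean of mcBKSM clones 1 and 3 on the x axis; red points passed the test, horizontal bars join the clones and dotted lines mark 2-fold. Ntn1 has a wide bar between the clones, and the red points Plxnb3, Unc5a, Slit3, Efnb3 and Unc5b lie far from the diagonal.

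Several other members differed by value and did not pass. Ntn1, the attractant of the floor plate, had 60.9 FPKM in pBKSM, against 7.28 and 2.11 in the clones (log2 difference 3.61 ± 0.82, SE, adjusted p = 0.116), with 41.4 in DTA, 14.8 in pOKSM, 87.2 in cNSC and 35.5 in MEF. Epha3, a receptor for lipid-anchored ephrins, had 0.678 FPKM in pBKSM, against 9.15 and 14.7 in the clones (-2.91 ± 0.37, SE, adjusted p = 0.0724), with 0.0613 in DTA, 12.1 in pOKSM, 0.0160 in cNSC and 0 in MEF. For Slit1 the difference was -3.28 ± 0.44 (SE, adjusted p = 0.0744). Dcc, the netrin receptor that mediates attraction, had 2.08 FPKM in pBKSM, against 9.995 and 11.4 in the clones (-1.92 ± 0.15, SE, adjusted p = 0.0525), with 0.953 in DTA, 8.53 in pOKSM, 2.08 in cNSC and 0 in MEF. Robo1, given above, differed by 1.80 ± 0.18 (SE, adjusted p = 0.0606). In each of these pOKSM lay nearer to the clones than to pBKSM.

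Markers of neurons and astrocytes also differed between the lines. Of 10 neuronal markers, 2 reached 1 FPKM in DTA, 5 in pBKSM, 8 in pOKSM, 8 in each mcBKSM clone, 7 in cNSC and 3 in MEF. Their sums did not order the libraries as Dcc, Slit1 and Epha3 did, at 125 FPKM in DTA, 278 in pBKSM, 255 in pOKSM, 224 and 283 in the clones, 140.4 in cNSC and 27.04 in MEF. Stmn2, Snap25 and Nefl were listed at 0 in pBKSM. The sum of 7 astrocyte markers split the lines as these genes did, in the opposite direction, at 475 FPKM in DTA, 499.7 in pBKSM, 133 in pOKSM, 107 and 103 in the clones, 559 in cNSC and 0.407 in MEF. Of these markers Gjb6 was listed at 0 in all 7 libraries, and Gfap and S100b in mcBKSM clone 3. The sum of 12 neural stem cell markers split the lines as the astrocyte sum did. It was 3908 FPKM in DTA, 6109 in pBKSM, 2244 in pOKSM, 1331 and 1176 in the clones, 2730 in cNSC and 16.5 in MEF. The part of any of these cell types in the levels of Dcc, Slit1, Epha3 and Efnb3 was not tested.

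Promoter sequence is shown for the receptor genes that set pBKSM and the clones apart most and have an entry in the RefSeq promoter table (GRCm38.p6). Of the 69 genes, 59 had entries, with 75 windows of 250 bases before a transcript start. Both strands were searched for the POU octamer ATGCAAAT and for the Sox-type motif ACAATG, since the reprogramming factors include POU and Sox proteins. Of all 32851 windows in the table, 1.60% held the octamer and 10.7% the Sox-type motif. Of the 75 guidance gene windows, 0 held the octamer and 7 the Sox-type motif. The windows run 5′ to 3′ on the gene's strand, and capitals mark the Sox-type motif. The Plxnb3 window lies at chrX:73756853-73757102 (plus strand), that of Unc5a at chr13:54949161-54949410 (plus strand) and that of Epha3 at chr16:63864176-63864425 (minus strand).
Plxnb3: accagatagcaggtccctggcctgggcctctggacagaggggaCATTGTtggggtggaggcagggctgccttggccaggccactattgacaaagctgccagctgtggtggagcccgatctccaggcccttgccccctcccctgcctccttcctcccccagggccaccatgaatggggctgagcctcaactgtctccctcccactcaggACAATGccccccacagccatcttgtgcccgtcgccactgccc
Unc5a: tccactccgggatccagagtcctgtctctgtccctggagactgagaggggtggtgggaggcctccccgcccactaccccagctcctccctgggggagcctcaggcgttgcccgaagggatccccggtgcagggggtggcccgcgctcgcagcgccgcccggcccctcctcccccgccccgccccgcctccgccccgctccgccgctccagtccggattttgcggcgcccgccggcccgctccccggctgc
Epha3: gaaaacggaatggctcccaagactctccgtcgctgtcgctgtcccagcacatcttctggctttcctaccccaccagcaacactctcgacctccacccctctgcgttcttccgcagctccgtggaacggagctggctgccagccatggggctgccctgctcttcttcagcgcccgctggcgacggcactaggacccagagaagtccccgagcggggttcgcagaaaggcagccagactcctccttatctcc
The Plxnb3 window held the Sox-type motif at 2 places, and those of Unc5a and Epha3 held neither motif. The windows had 3, 25 and 16 CpG dinucleotides in this order. The median was 15 over the 75 guidance gene windows and 6 over all windows. A match is a description of the letters, and these data hold no measure of binding.

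The DTA line, from cells in which Oct4-activating cells are removed, was set against the other 4 iNSC lines. Limma called 0 of 53 tested guidance genes, where 0.355% of all 12378 genes tested were called. An unadjusted p under 0.05 was found for 11 guidance genes (20.8%) and for 20.5% of all genes tested, so the guidance genes were at the background share. Ntn4, with the values above, came closest (log2 difference -2.87 ± 0.33, SE, adjusted p = 0.0582). DTA had more Plxna1 and Plxnd1 by value, with Plxna1, a coreceptor of class 3 semaphorins, at 21.0 FPKM in DTA, 12.5 in pBKSM, 9.87 in pOKSM, with 6.93 and 7.74 for the mcBKSM clones (1.13 ± 0.34, SE, adjusted p = 0.178). Ephb3 was 21.5 FPKM in DTA and 10.9 to 13.1 FPKM in the other lines (0.82 ± 0.18, SE, adjusted p = 0.117). Without pBKSM, 11 guidance genes were called higher and 11 lower in DTA, and 3951 genes over the table were called. Without mcBKSM clone 1, 0 genes of the table were called, and without pOKSM and without mcBKSM clone 3 the counts were 3 and 2.

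Pairs of libraries were also set side by side without a test. Genes reaching 5 FPKM in one or both libraries were used. Between mcBKSM clone 1 and pOKSM, 0 of 30 guidance genes were 2-fold or more apart, where 2.81% of all genes were. Between clone 3 and pOKSM it was 1 of 30, Ntn1, where 2.26% of all genes were. Ntn1 was also the 1 of 31 that differed between clone 3 and clone 1, where 1.26% of all genes did. These counts were near the shares over all genes. Between pBKSM and pOKSM 13 of 35 were 2-fold or more apart (37.1%), where 11.6% of all genes were. Between DTA and pBKSM it was 10 of 32 (31.2%), where 10.5% of all genes were. Against cNSC the share was lowest for DTA, 5 of 31 (Epha2, Nrp2, Ntn1, Ntn4 and Unc5b), then pBKSM with 7 of 33, pOKSM with 14 of 35, mcBKSM clone 1 with 15 of 35 and clone 3 with 20 of 36. Over all genes the shares ran in the same order, at 10.3% for DTA, 16.9% for pBKSM, 19.5% for pOKSM, 23.5% for clone 1 and 24.5% for clone 3. Against MEF the share of guidance genes was 67.6% to 73.7% in the lines and 62.2% in cNSC. The share of all genes was 30.1% to 33.8% and 29.3%.

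**Figure D5:**
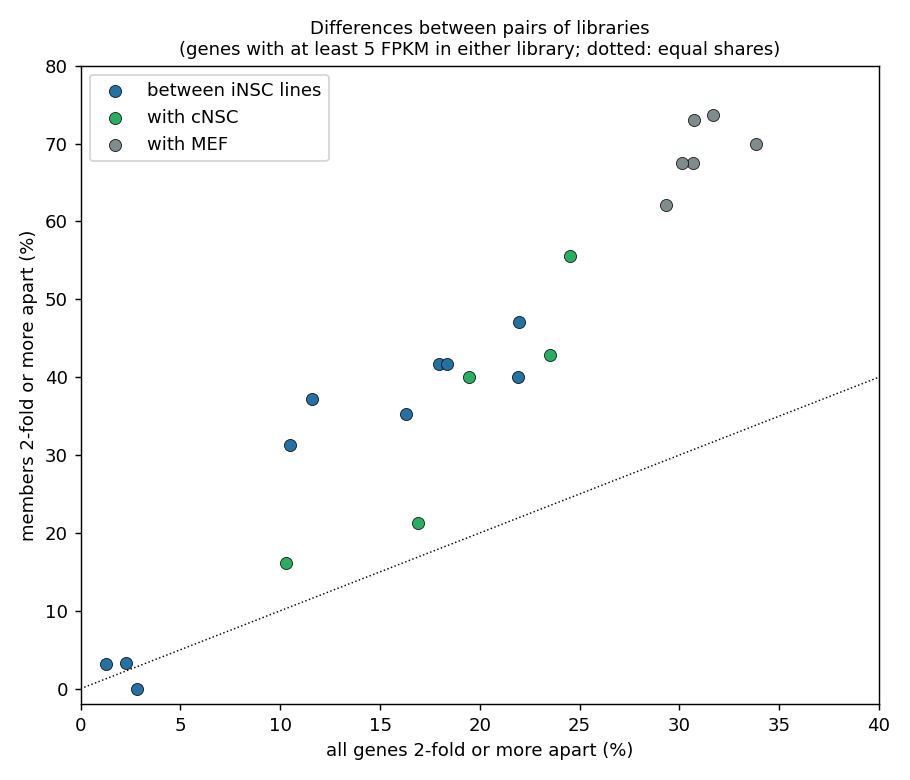
Share of guidance genes (y axis) and of all genes (x axis) that were 2-fold or more apart on the log2(FPKM + 1) scale, 1 point per pair of libraries, coloured by whether the pair holds MEF, cNSC or iNSC lines alone. In 20 of the 21 pairs the share was higher among guidance genes, and the exception was mcBKSM clone 1 with pOKSM. For mcBKSM clone 3 with pOKSM and with clone 1 the share rested on Ntn1 alone. The pairs reuse the same libraries, so they are not independent.

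Other genes of the pathway changed in part. Of 44 tested genes that act downstream of guidance receptors, 5 rose and 6 fell in the iNSC lines against MEF, where 6.77% of all genes tested rose and 9.55% fell. Dpysl5, a collapsin response mediator, rose to 10.4 to 35.04 FPKM in the lines, against 0.0882 in MEF (log2 difference 4.54 ± 0.67, SE, adjusted p = 0.00959), and Fyn, a kinase below several of these receptors, to 138 to 188 FPKM, against 12.5 in MEF (3.58 ± 0.19, SE, adjusted p = 0.000209). Rnd1, a small GTPase that binds plexins, fell to 1.10 to 2.78 FPKM, against 37.0 in MEF (-3.53 ± 0.39, SE, adjusted p = 0.00335). Of 20 tested genes with other guidance roles, 3 rose and 3 fell. The chemokine gene Cxcl12 fell to 0 to 1.29 FPKM, against 204 in MEF (-7.24 ± 0.48, SE, adjusted p = 0.000496), and the receptor phosphatase gene Ptprf rose to 28.1 to 37.2 FPKM, against 0.302 in MEF (4.69 ± 0.21, SE, adjusted p = 0.000116).

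In pBKSM against the mcBKSM clones, 1 downstream gene was higher and 3 were lower of 44, and 4 of 20 other guidance genes were higher and 0 lower, where 3.74% of all genes tested were higher and 2.08% lower. Chl1, a cell adhesion gene of growing axons, had 29.5 FPKM in pBKSM, against 0.0618 and 0.0681 in the clones (log2 difference 4.84 ± 0.13, SE, adjusted p = 0.0367). Draxin, a secreted repellent, had 10.99 FPKM in pBKSM, against 0.146 and 0.147 in the clones (3.39 ± 0.08, SE, adjusted p = 0.0367). The collapsin response mediator gene Dpysl3 was lower, at 5.38 FPKM in pBKSM, against 66.9 and 56.6 in the clones (-3.29 ± 0.15, SE, adjusted p = 0.04). Against cNSC, 0 of 44 downstream genes and 1 of 20 other guidance genes were called: Ptprd, a receptor phosphatase gene, at 3.65 to 5.57 FPKM in the lines and 0.197 in cNSC (2.17 ± 0.26, SE, adjusted p = 0.0263). For DTA against the other lines limma called 0 in both lists.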

How the data were processed

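RNA sequencing of 7 pooled libraries was used as FPKM values, which the authors deposited as 1 table of genes by library. The submitters' processing notes name STAR 2.5.2b, Cufflinks 2.2.1, Cuffnorm, R 3.3.2 and the build mm10, with no role for each. Depth was estimated from the FPKM step that 1 fragment makes in 1802 single-transcript genes. Values were tested as log2(FPKM + 1) with limma 3.58.1 (R 4.3.3, trend on), for genes reaching 1 FPKM in some library of the fit, with Benjamini-Hochberg adjustment over all genes tested and a call at an adjusted p under 0.05. Fold changes on this scale understate changes of low genes. The p-values measure spread between lines, since replicates were pooled within libraries. In pBKSM against mcBKSM they measure the spread between the mcBKSM clones alone, and spread between lines does not enter. The 5 iNSC lines, MEF and cNSC formed 1 fit of 3 classes, the 5 iNSC lines alone gave DTA against the others, and 6 label groups gave pBKSM against mcBKSM. Every gene matching the family symbols was a member. Values in every library were given for members that were called, that led their family or that differed 4-fold between cNSC and MEF. Members and lists were chosen with earlier results of these data known. Coordinates are those of GENCODE M21 (mm10), and all 69 members matched. Alternatives were a pseudocount of 0.1, no filter, a filter of 5 FPKM, quantile normalization, limma without trend and leaving out 1 iNSC library at a time. MEF and cNSC were never left out, and DTA was kept in its own comparison. For pBKSM against mcBKSM only the clones were left out, and the 3 BKSM libraries were also fitted alone. Averaging the mcBKSM clones into 1 library was added after seeing the data.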

Additional observations from a re-analysis of the deposited data

Results flagged for a closer look

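Within the 5 iNSC lines, 5 of 53 guidance genes had 1 line far from the other lines on the log2(FPKM + 1) scale, with a gap above 0.71 of the whole range (Dixon's critical value for 5 samples). Chance flags about 1 in 20 such groups. The same rule picked out 9.43% of these guidance genes and 9.9% of all 12378 genes that reached 1 FPKM in a line, so the guidance genes were at the background share. Ephb3 was highest in DTA at 21.5 FPKM, against 10.9 to 13.1 FPKM in the other lines. Ntn4 was lowest in DTA at 2.19 FPKM, against 17.1 to 27.8 FPKM. Ntn5 was highest in DTA at 1.05 FPKM, against 0 to 0.153 FPKM, and Unc5c was highest in DTA at 1.28 FPKM, against 0.0587 to 0.226 FPKM. Nrp2 was lowest in pBKSM at 3.26 FPKM, against 10.3 to 15.8 FPKM in the other lines. DTA was the line set apart in 4 of the 5, and how often it was so among all flagged genes was not counted. None of the 5 passed limma's test of DTA against the other lines or of pBKSM against the mcBKSM clones.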

How the results depend on the processing

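No result changed direction. For iNSC lines against MEF, leaving out 1 line gave 1147 to 3193 genes called, 3 to 13 members higher and 6 to 13 lower. For iNSC lines against cNSC, leaving out 1 line gave 50 to 883 genes, 0 to 1 members higher and 0 to 6 lower. Genes called there numbered 74 with a pseudocount of 0.1, 618 with no filter, 74 with a filter of 5 FPKM and 65 with the mcBKSM clones averaged, against 152. Members lower there numbered 2 with no filter and 0 with a pseudocount of 0.1, the 5 FPKM filter, quantile normalization, no trend or averaged clones. For DTA against the other lines, leaving out 1 line gave 0 to 3951 genes and 0 to 11 members in each direction. Genes called there numbered 17 with a pseudocount of 0.1, 583 with no filter, 16 with the 5 FPKM filter, 98 without trend and 2 with averaged clones, against 44, and no filter gave 2 members higher and 1 lower. For pBKSM against mcBKSM, no filter gave 6 members higher and 1 lower. The 5 FPKM filter gave 1454 genes, 5 members higher and 6 lower, the 3 BKSM libraries alone gave 2536 genes, 8 higher and 10 lower, and no trend gave 0 genes and 0 members, against 759. The cause was not tested. Leaving out a clone there left no residual degree of freedom, so it gave values with no test. No paired analysis was possible because the labels give the compared groups no shared replicate numbers beyond 1 library each. Depth limits genes near the floor, such as Slit3 in pBKSM.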
